A study of Mus musculus with 4 samples.

Results

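Imprinted genes, which are expressed from the copy of a single parent, were followed through H3K27ac HiChIP libraries of mouse embryonic stem cells from a pair of inbred strains, B6 (C57BL/6J) and D2 (DBA/2J). H3K27ac HiChIP joins DNA fragments that lie near each other in the nucleus and pulls down those carrying acetylated lysine 27 of histone H3, a mark of active promoters and enhancers, so a count is a sequenced pair linking a pair of genomic intervals (anchors). The 44 genes were taken from the well known imprinted clusters of the mouse. Every anchor pair (loop) with at least 1 anchor over an annotated start site of such a gene (GENCODE M21, GRCm38) was kept, whatever its counts, which gave 2812 of the 1513030 loops in the table. These loops touched 45 anchors, and 36 of the 44 genes had at least 1 anchor. Each strain was represented by 2 lines with 1 library each. All lines shared serum-containing medium with LIF and the kinase inhibitors PD0325901 and CHIR99021, and the labels report no engineered allele. Each line comes from a pure inbred strain, so both parental copies carry the same sequence and every count sums them. Labels call the lines biological replicates, and p-values below measure only the spread between these lines.

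Imprinting is set in the germ line, where DNA methylation is laid down on one parental copy of an imprinting control region and then kept through the reprogramming of the early embryo. Zinc finger proteins such as ZFP57, with the corepressor TRIM28, bind the methylated copy and protect its mark. In many clusters the unmethylated copy drives a long noncoding RNA, for example Kcnq1ot1 or Airn, that silences neighbouring genes on the same chromosome, and many imprinted genes act on fetal growth, the placenta or behaviour.

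Promoters of called genes and of Mest are printed to show how differently the imprinted starts are built. They run from 250 bases before to 50 bases after the start, read 5′ to 3′ on the gene's strand (RefSeq, GRCm38.p6), with capitals on every CG and on the hexamer TGCCGC, the core that ZFP57 recognises, or its reverse complement GCGGCA. Kcnq1ot1, Peg3, Zrsr1 and H13 were shown because their totals differed between strains, Grb10 for the same reason and for its CG density, and Mest because it alone held the hexamer more than once, and these were picked after their values had been seen. Intervals are chr7:143296498-143296797 (minus) for Kcnq1ot1, chr7:6730370-6730669 (minus) for Peg3, chr11:22971755-22972054 (plus) for Zrsr1, chr2:152669211-152669510 (plus) for H13, chr11:12037371-12037670 (minus) for Grb10 and chr6:30737800-30738099 (plus) for Mest.
Kcnq1ot1: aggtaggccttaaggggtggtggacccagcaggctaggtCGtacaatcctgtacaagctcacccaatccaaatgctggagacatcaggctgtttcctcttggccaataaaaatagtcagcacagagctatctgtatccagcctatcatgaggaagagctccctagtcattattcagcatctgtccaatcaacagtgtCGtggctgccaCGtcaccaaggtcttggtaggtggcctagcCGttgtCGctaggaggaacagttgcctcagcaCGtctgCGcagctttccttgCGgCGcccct
Peg3: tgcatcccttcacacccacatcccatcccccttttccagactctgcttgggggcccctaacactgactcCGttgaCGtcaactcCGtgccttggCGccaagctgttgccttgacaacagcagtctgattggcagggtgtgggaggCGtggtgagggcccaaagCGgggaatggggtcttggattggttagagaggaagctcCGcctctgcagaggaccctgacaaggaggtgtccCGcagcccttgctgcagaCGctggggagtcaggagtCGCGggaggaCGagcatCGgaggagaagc
Zrsr1: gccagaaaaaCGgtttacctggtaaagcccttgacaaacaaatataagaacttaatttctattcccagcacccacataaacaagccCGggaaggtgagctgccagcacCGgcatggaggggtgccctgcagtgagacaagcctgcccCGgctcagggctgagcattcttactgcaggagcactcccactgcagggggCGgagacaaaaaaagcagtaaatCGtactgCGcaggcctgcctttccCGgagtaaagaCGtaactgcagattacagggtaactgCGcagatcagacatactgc
H13: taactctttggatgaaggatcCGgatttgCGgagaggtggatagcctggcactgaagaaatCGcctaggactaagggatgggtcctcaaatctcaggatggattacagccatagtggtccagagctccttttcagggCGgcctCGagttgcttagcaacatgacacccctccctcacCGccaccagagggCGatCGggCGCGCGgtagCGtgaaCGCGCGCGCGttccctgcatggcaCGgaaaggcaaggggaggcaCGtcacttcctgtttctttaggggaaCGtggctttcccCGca
Grb10: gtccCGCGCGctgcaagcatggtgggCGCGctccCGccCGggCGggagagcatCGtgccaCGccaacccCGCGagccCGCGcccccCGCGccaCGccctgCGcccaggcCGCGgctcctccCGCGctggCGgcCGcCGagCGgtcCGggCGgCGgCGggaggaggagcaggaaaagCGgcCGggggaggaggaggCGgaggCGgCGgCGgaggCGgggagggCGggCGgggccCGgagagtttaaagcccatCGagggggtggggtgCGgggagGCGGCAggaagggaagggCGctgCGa
Mest: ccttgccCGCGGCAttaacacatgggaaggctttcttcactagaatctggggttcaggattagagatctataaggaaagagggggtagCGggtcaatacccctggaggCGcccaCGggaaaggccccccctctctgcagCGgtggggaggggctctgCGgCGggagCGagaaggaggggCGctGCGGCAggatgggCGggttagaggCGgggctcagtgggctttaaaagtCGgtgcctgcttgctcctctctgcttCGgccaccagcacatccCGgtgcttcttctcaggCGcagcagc

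CG pairs numbered 9 in the Kcnq1ot1 window, 10 in Zrsr1, 13 in Peg3, 17 in Mest, 21 in H13 and 45 in Grb10. The median was 17 over the 34 windows of the 27 anchored genes with an entry in the table, against 7 over all 32851 promoter windows. The hexamer, searched on both strands, occurred in 11 of the 34 windows (32.4%) and in 11.6% of all promoter windows. The 34 windows had to lie within an anchor, and the 32851 did not. They also differ in CG pairs, so neither comparison is like for like. Mest entered the 11 with a pair of windows that overlap almost fully. Genes with the hexamer were Commd1, Copg2, Grb10, Igf2, Meg3, Mest, Nnat, Plagl1, Snrpn and Zim1. In Mest it began at bases 9 and 184 of the window and in Grb10 at base 275, each time as GCGGCA. The printed Peg3 window overlaps that of Usp29, which starts on the opposite strand. Cdkn1c, Impact, Inpp5f, Klf14, Nap1l4, Peg10, Peg13, Sgce and Trappc9 had no entry in the promoter table and were not searched. The windows of Kcnq1ot1, Peg3, Zrsr1 and H13 printed above do not hold the hexamer. The wider anchors around them do, with 4 matches at Kcnq1ot1, 9 at Peg3 and 9 at Zrsr1. At H13 the anchor of the gene's start has 1 and the internal anchor 8.

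All 56562 anchors of the table ran from one GATC, the site cut by the DpnII enzyme used here, to another. The 45 imprinted anchors had a median width of 7.70 kb, against 5.94 kb for the 18635 anchors over any start site. They held a median of 19.7 CG pairs per kb, against 17.2, and 39 of the 45 (86.7%) held the hexamer TGCCGC, against 64.9%. Width differs between the sets, and a wider anchor has more room for a match. Per kb the median was 0.239 hexamers, against 0.137. The part of width in this difference was not tested.

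Libraries totalled 2767882 to 2944258 counts and so differed little in depth. D2 replicate 1, whose library name is marked 10cyc where the others read 8cyc, spread its counts over 715798 anchor pairs, against 803268 to 833100 in the others. It also had the highest summed total over pluripotency genes, of which 9 of 12 had an anchor. This total was 3551 CPM (counts per 1000000 counts of the library) against 2254 to 2443. Esrrb, Tfcp2l1 and Klf2 had no anchor, so a missing anchor does not by itself show that a cell type is absent. Of 7 fibroblast (feeder) markers 3 had an anchor, with a sum of 6.86 to 11.4 CPM, and Col1a1, Col1a2, Col3a1 and Postn had none. Markers of primitive endoderm summed to 94.7 to 107 CPM (4 of 4 with an anchor) and those of mesoderm and trophectoderm to 95.7 to 121 CPM (3 of 4). HiChIP counts follow contacts and acetylation and are no measure of RNA.

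Summed over all clusters, loops of imprinted genes took a larger share of the D2 libraries. They held 7375 and 7202 counts in B6 and 8838 and 8570 in D2. Here and below, values of 4 libraries stand in the order replicate 1 then 2 of B6, followed by replicate 1 then 2 of D2. As a share of the library this was 0.254% and 0.257% in B6, and 0.319% and 0.291% in D2, so the strains did not overlap and the log2 ratio of the means was 0.26. Loops at any start site held 80.6%, 79.9%, 82.9% and 80.5%. The sum leans on the clusters with most counts, Zrsr1-Commd1 (1475, 1314, 1969 and 1770) and Grb10 (1061, 1116, 1500 and 1469). The direction was not shared by all clusters, and H13 had 812, 658, 588 and 583. With 2 libraries a strain, an exact two-sided permutation of the labels could give no p below 0.33, and none is given.

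For each gene the counts of all loops at its start sites were summed into a promoter contact total. All 36 anchored genes passed the minimum of 20 counts over the 4 libraries. In edgeR (quasi-likelihood test, p adjusted over all genes after Benjamini and Hochberg), 7 of the 36 passed an adjusted p of 0.05, where 13.1% of the 21676 genes tested did. Kcnq1ot1, Impact, Peg3, Usp29, Grb10 and Zrsr1 were higher in D2 (6 of 36; background 3.6%), and H13 was lower (1 of 36; background 9.51%). With library totals in place of TMM factors the calls were 7 higher, now with Commd1, and 0 lower, without H13 (background 6.06% and 8.51%). Peg3 and Usp29 share their main anchor and are not independent. The median log2 fold change over the 36 was 0.19, against 0.01 over all genes. Both D2 libraries lay above both B6 libraries for 20 of the 36 (background 32.7%) and below for 3 (background 23.6%).

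**Figure D1:**
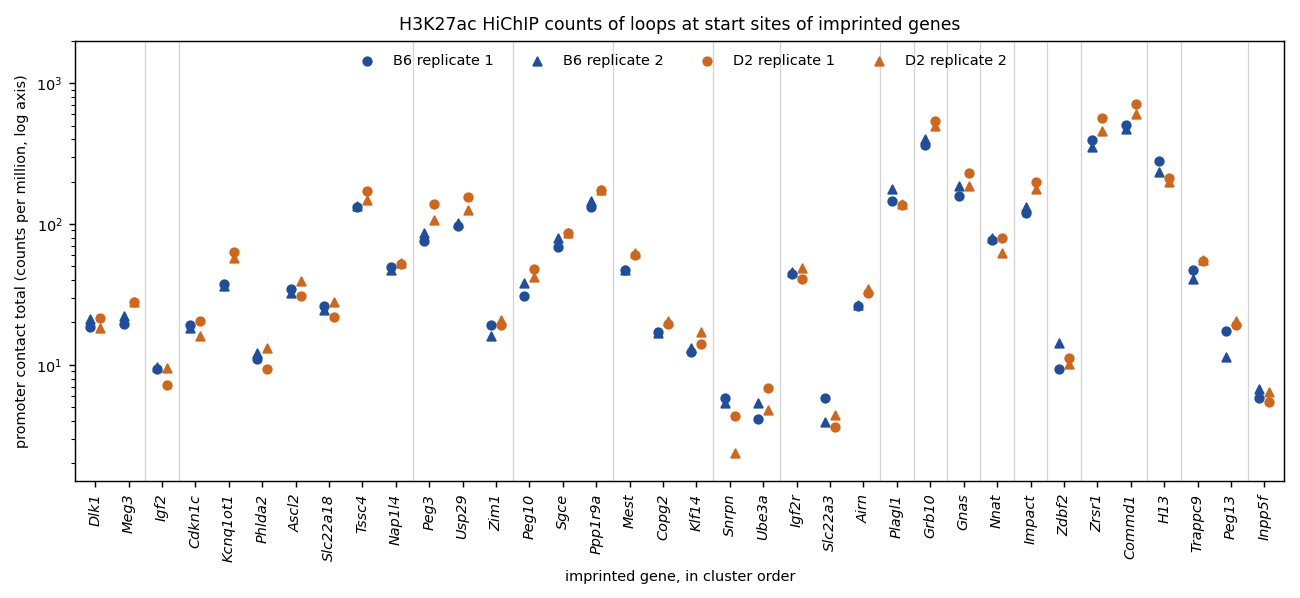
Promoter contact totals in CPM (log axis) of the 36 imprinted genes with an anchor, in cluster order (grey lines part clusters), with 1 point per library (blue B6, orange D2; circles replicate 1, triangles replicate 2). Totals run from a few CPM at Snrpn, Ube3a and Slc22a3 to the highest at Grb10, Zrsr1 and Commd1, and both D2 points lie above both B6 points for 20 genes.

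The calls depended on single libraries. With 1 library of a strain left out, the remaining one is assumed to vary like the other strain's pair. Without B6 replicate 1 or without B6 replicate 2 no imprinted gene passed in edgeR (0 of 36, with 8 and 6 at an unadjusted p under 0.05), where 6.2% and 6.3% of all genes did (16% and 16.6% at an unadjusted p under 0.05). Without D2 replicate 1, 4 passed (Grb10, H13, Impact and Kcnq1ot1), beside 11.9% of all genes. Without D2 replicate 2, 9 of 36 passed, which is the same share as the 25% of all genes. DESeq2 on the same totals called 1, Impact (8 at an unadjusted p under 0.05), where 5.82% of all genes passed and 15.3% had an unadjusted p under 0.05.

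Stronger genes showed more of the difference. Among the 11 imprinted genes with at least 1000 counts the median log2 fold change was 0.37, with 5 called higher and H13 lower. These 11 include Peg3 with Usp29 and Zrsr1 with Commd1, pairs that share their main anchor, and so are not independent. Over the 7542 genes of that strength the median was 0.05, with 5.93% called higher and 10.3% called lower. Among the 15 imprinted genes with fewer than 300 counts 0 were called in edgeR (0 at an unadjusted p under 0.05), and 6 lay above 0, with a median of -0.08. Over the 6963 genes of that strength 0.89% were called higher and 7.88% lower, with a median of -0.10. D2 replicate 1 had the highest of the 4 totals in 15 of the 36 genes (41.7%) and D2 replicate 2 in 13 (36.1%), against 37.8% and 21.6% over all genes tested.

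Sorted by the parental copy known to be expressed, 16 of the tested genes were labelled paternal, 17 maternal and 3 mixed (Grb10, Gnas and Inpp5f). Each gene has a single label. For several genes, among them H13 and Slc22a3, imprinting also varies with transcript or tissue, so a label need not hold in these cells. The copy used in these cells was not measured. Of the 16 paternal genes 5 were higher in D2 and 0 lower in edgeR (6 at an unadjusted p under 0.05), with a median log2 fold change of 0.30. Of the 17 maternal genes 0 were higher and H13 was lower (3 at an unadjusted p under 0.05), with a median of 0.12. Over all genes 3.6% were called higher and 9.51% lower, and 25.9% had an unadjusted p under 0.05. Anchors cross these classes, since the paternal Zrsr1 shares its anchor with the maternal Commd1, H13 shares its internal anchor with the paternal Mcts2, and Peg3 and Usp29 share theirs, so the calls cannot be assigned to parental classes. Grb10 was the call among the mixed genes. The paternal genes also held Plagl1, Snrpn, Igf2, Nnat, Zdbf2 and Dlk1, with fold changes below 0, and the difference between the classes was not tested.

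**Figure D2:**
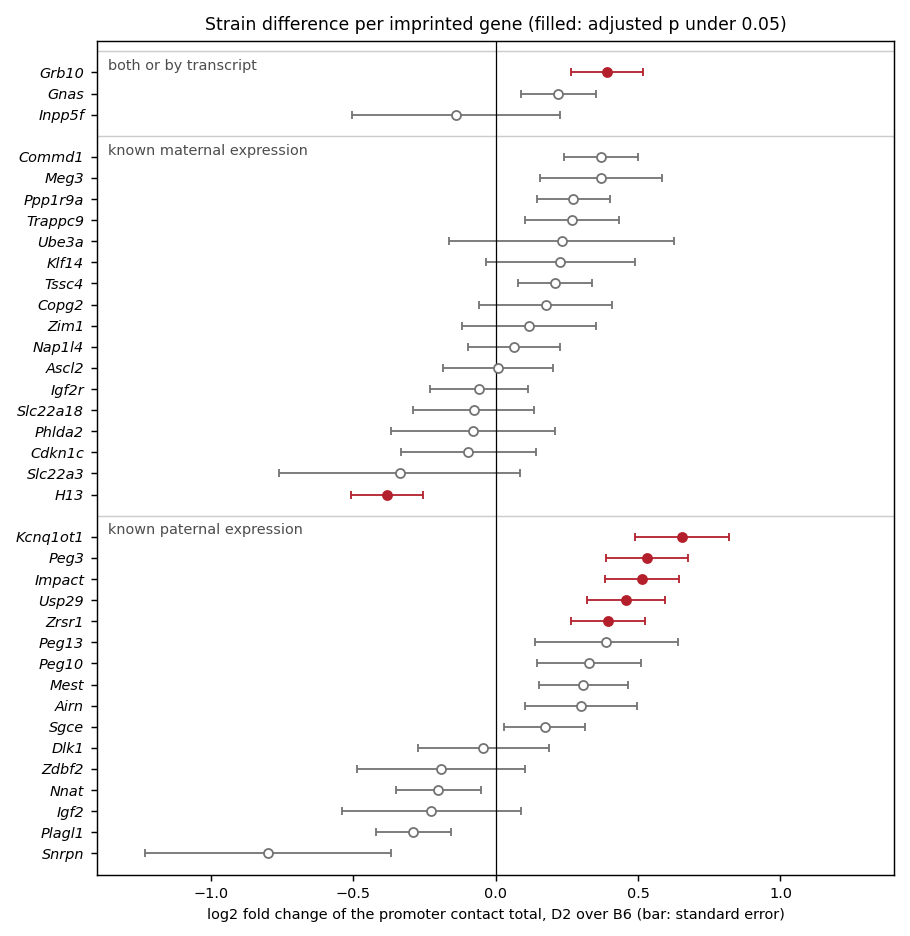
Log2 fold change of the promoter contact total, D2 over B6, from edgeR (x axis; bars are standard errors) for the 36 imprinted genes, grouped by the copy known to be expressed; red filled points passed an adjusted p of 0.05. Kcnq1ot1, Peg3, Impact, Usp29, Zrsr1 and Grb10 lie to the right at 0.39 to 0.65, and H13 lies to the left at -0.38.

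Single loops were counted more sparsely. Of the 2812 loops, 288 had at least 20 counts and were tested, and 3 passed (1.04%, all higher in D2; edgeR, Benjamini-Hochberg), where 1.43% of 108034 loops passed, 0.472% higher and 0.956% lower in D2. The share was thus no larger than over all loops. D2 lay above B6 without overlap in 101 of the 288 (background 23.8%) and below in 32 (background 17.9%). Their median log2 fold change was 0.16, against 0.01 over all tested loops. By strength, the 189 loops of 20 to 49 counts had a median of 0.06 (all loops -0.07), and the 17 loops of at least 200 counts a median of 0.44 (all loops 0.13). DESeq2 called 0 of the 288 (9 at an unadjusted p under 0.05), where it called 0.075% of all loops (2.18% at an unadjusted p under 0.05). In edgeR 43 of the 288 had an unadjusted p under 0.05, where 11.7% of all loops did. Without B6 replicate 1, B6 replicate 2 or D2 replicate 1 edgeR called 0 of the 288 (16, 24 and 29 at an unadjusted p under 0.05). Over all loops it then called 0.3%, 0.341% and 0.541% (7.42%, 8.19% and 8.12% at an unadjusted p under 0.05). Without D2 replicate 2 it called 10, beside 1.88% of all loops.

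Kcnq1ot1 is the paternally transcribed noncoding RNA that starts inside Kcnq1 and silences its cluster in cis (chr7:143203458-143296549, minus strand). Its single anchor of 12.8 kb had totals of 37.8 and 36.1 CPM in B6 and 63.2 and 57.7 CPM in D2. Both D2 libraries were well above both B6 libraries. The log2 fold change was 0.65 ± 0.17 (standard error; edgeR, adjusted p = 0.00654), and the adjusted p rose to 0.0794 without B6 replicate 1 and 0.115 without B6 replicate 2. All 7 tested loops of this anchor had fold changes above 0, with a median of 0.82, though 0 of them passed in edgeR (2 at an unadjusted p under 0.05). They reached Tspan32, Cd81 and Tssc4 on one side, over 282.8 kb. On the other they reached the intergenic stretch beside Cdkn1c and the start of Cars, over 299.4 kb. These loops, like those counted below at Peg3, Zrsr1 and H13, are parts of the total by which the locus was picked. A majority in its direction was therefore largely fixed beforehand and is no separate support. Over all tested loops 55037 of 108034 had fold changes above 0.

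The loop joining Kcnq1ot1 to the anchor of Tssc4 and Cd81, 233.4 kb away, had 3 and 7 counts in B6 and 12 and 19 in D2. These libraries do not overlap, but the numbers are small, and the log2 fold change of 1.54 ± 0.52 (standard error) did not pass (edgeR, adjusted p = 0.114). The anchor of Tssc4, a gene for a splicing-associated protein, had the highest total of the cluster and also carries Cd81, a tetraspanin gene. It is the widest as well, at 24.5 kb, and per kb it had 5.99 CPM, against 6.87 for Ascl2, 6.60 for Slc22a18 and 6.22 for Cdkn1c. Its totals were 132.7 and 133.9 CPM in B6 and 172.3 and 148.1 CPM in D2 (log2 fold change 0.21, edgeR adjusted p = 0.327). The loop with most counts of the cluster joined this anchor to Tspan32, 49.4 kb away, with 83 and 89 counts in B6 and 149 and 117 in D2. D2 was the higher strain in both libraries, and the fold change of 0.56 ± 0.23 (log2, standard error) had an adjusted p of 0.262 in edgeR. The longest tested loop linked it to Fgf4 over 1801 kb with 8, 5, 7 and 4 counts.

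None of the maternally expressed genes of the cluster passed in edgeR (0 of 6, and 0 at an unadjusted p under 0.05), and their difference from Kcnq1ot1 was not tested. Log2 fold changes were -0.10 for Cdkn1c, a cyclin-dependent kinase inhibitor, -0.08 for Phlda2, which restrains placental growth, and -0.08 for Slc22a18, a transporter gene. They were 0.01 for Ascl2, a trophoblast transcription factor, and 0.06 for Nap1l4, a histone chaperone. Adjusted p in edgeR ranged from 0.85 to 0.985 for these 5 and was 0.327 for Tssc4, whose libraries did not overlap. The libraries of Cdkn1c, Phlda2, Slc22a18 and Ascl2 overlapped between strains, and the standard errors were 0.16 to 0.29. Loops between genes of this cluster held 285 of its 3544 counts (8.04%), which makes it the richest in such loops by number (21). Kcnq1 itself, a potassium channel gene, had no anchor at a start site, and the nearest lay 6241 bp away.

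Peg3 and Usp29 start back to back in a CG-rich region that acts as a control region of their cluster. Peg3 encodes a zinc finger protein and Usp29 belongs to the ubiquitin-specific proteases. The shared anchor (chr7:6720964-6734833) gave Peg3 76.3 and 86.8 CPM in B6 and 138.4 and 107.0 CPM in D2, so that the strains did not overlap and D2 replicate 1 was highest. The log2 fold change was 0.53 ± 0.14 (standard error; edgeR, adjusted p = 0.0115). Usp29, with 1 further anchor, had 96.6 and 101.4 CPM against 156.4 and 126.7 CPM (0.46 ± 0.14, edgeR adjusted p = 0.0216). Without D2 replicate 1 the fold changes were 0.35 and 0.31 and the adjusted p 0.0899 and 0.111. Without a B6 library they were also not called, with adjusted p up to 0.264 for Peg3 and 0.284 for Usp29.

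Partners of this anchor lay on both sides. Of its 13 tested loops, which are parts of the called total, 12 had fold changes above 0 (median 0.68). In edgeR 0 passed (3 at an unadjusted p under 0.05). The anchor's strongest loop, to a site 47.6 kb inside Usp29, did not separate the strains (log2 fold change 0.14). It had 47 and 61 counts in B6 and 67 and 58 in D2. The longest reached the start of Epp13 at 466.5 kb with 4, 6, 11 and 6 counts. The exception was the loop to Zim1, a maternally expressed zinc finger gene 31.5 kb away, with 10 and 8 counts in B6 and 5 and 8 in D2. Zim1's own total was 19.3 and 16.1 CPM in B6 and 19.1 and 20.7 CPM in D2, and the strains overlapped.

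Impact, a paternally expressed gene whose product restrains the eIF2 alpha kinase GCN2 (chr18:12955852-12992950, plus strand), had totals of 119.3 and 132.5 CPM in B6 and 197.6 and 176.3 CPM in D2. No D2 library came near a B6 library, and the log2 fold change was 0.51 ± 0.13 (standard error; edgeR, adjusted p = 0.0061). It was the single gene that DESeq2 also called (adjusted p = 0.0334). Leaving out a B6 library raised edgeR's adjusted p to 0.230 (replicate 1) or 0.0598 (replicate 2), while without D2 replicate 1 it was 0.0037.

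Of the 3 called loops 2 lay at Impact. The first joined the anchor at the start of the gene, shared with a start of Osbpl1a, to an internal start-site anchor 26.6 kb downstream. It had 35 and 49 counts in B6 and 98 and 78 in D2, and the strains were far apart (log2 fold change 1.00 ± 0.25 standard error, edgeR adjusted p = 0.0128). The other joined the internal anchor to a start of Osbpl1a, an oxysterol-binding protein gene, 116.8 kb away. It had 20 and 23 counts in B6 and 50 and 46 in D2, a log2 fold change of 1.09 ± 0.30 (standard error, edgeR adjusted p = 0.0294). Neither passed in DESeq2 (adjusted p = 0.351 and 0.568), nor in edgeR without D2 replicate 1 (0.201 and 0.215), without B6 replicate 1 (0.606 and 0.501) or without B6 replicate 2 (0.105 and 0.243). The longest tested loop of the gene reached Ss18 over 1717 kb with 7, 6, 11 and 8 counts.

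Grb10 encodes an adaptor protein that damps insulin and growth factor signalling and is expressed from the maternal copy in most tissues and the paternal copy in neurons (chr11:11930508-12038683, minus strand). Its totals were 364.8 and 398.5 CPM in B6 and 541.9 and 498.9 CPM in D2, with no overlap. The log2 fold change was 0.39 ± 0.13 (standard error; edgeR, adjusted p = 0.0346), and the adjusted p was 0.475 without B6 replicate 1, 0.226 without B6 replicate 2 and 0.0547 in DESeq2. Nearly all of these counts came from a 55.1-kb internal anchor with 5081 counts. The CG-dense promoter printed above lies in the other anchor, at the start of the gene, which had 15 and 23 counts in B6 and 16 and 28 in D2. The loop between both anchors had only 17 counts.

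The internal Grb10 anchor faced its neighbour Ddc, the gene of dopa decarboxylase, which is imprinted in the developing heart. The loop to the anchor of Ddc and Fignl1, 130.8 kb away, was the strongest of all 2812, with 371 and 401 counts in B6 and 668 and 534 in D2. D2 was higher in both libraries, and the log2 fold change of 0.57 ± 0.22 (standard error) had an adjusted p of 0.211 in edgeR. A further Ddc anchor at 68.5 kb had 251, 274, 387 and 362 counts, and an anchor 38.6 kb away 222, 237, 242 and 301. Together with these neighbours, 87.7% of the Grb10 counts ended on a start site of another gene. The longest tested loop, to Gm12004 at 1055 kb, had 7, 4, 6 and 6 counts and did not separate the strains.

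Zrsr1 is a paternally expressed retrogene for a splicing factor that lies in an intron of the maternally expressed Commd1, a gene for a protein of copper handling and protein sorting. Both genes start in a 30.0-kb anchor that also holds the start of Cct4, a chaperonin subunit gene (chr11:22968813-22998788), so counts cannot be assigned to one of them. Zrsr1 had totals of 395.8 and 352.0 CPM in B6 and 562.2 and 460.6 CPM in D2, with no overlap and D2 replicate 1 highest. Its log2 fold change was 0.39 ± 0.13 (standard error; edgeR, adjusted p = 0.0408), and 0.25 with an adjusted p of 0.120 without D2 replicate 1. The adjusted p was 0.194 and 0.504 without B6 replicate 1 or 2. Commd1, with 1 further anchor, had 507.2, 469.1, 711.4 and 601.2 CPM and just missed the threshold (0.37 ± 0.13, edgeR adjusted p = 0.0541), and it passed without D2 replicate 2 (9.76e-05). This locus had the highest totals of all the clusters, also per length of anchor, at 14.8 CPM per kb for Zrsr1 against 0.391 for Snrpn, the lowest.

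The called loop of the locus joined the shared anchor to an anchor over the starts of the predicted RNAs Gm12059 and Gm23740, 100.4 kb away. It had 112 and 106 counts in B6 and 262 and 175 in D2. Both D2 libraries were above B6 but lay far from each other. The log2 fold change was 0.94 ± 0.23 (standard error; edgeR, adjusted p = 0.0058), 0.58 without D2 replicate 1 (adjusted p = 0.249) and 0.94 in DESeq2 (adjusted p = 0.119). Without B6 replicate 1 or 2 the adjusted p was 0.419 and 0.384. Of 42 tested loops of this anchor, which are parts of the called total, 29 had fold changes above 0, with a median of 0.31. Loops towards Usp34 and B3gnt2 lay on either side of 0, while the nearer one to Fam161a, 25.7 kb away, had 111, 76, 179 and 132 counts. The longest tested loop, to Vps54 over 1731 kb, had 6, 4, 12 and 7 counts.

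**Figure D3:**
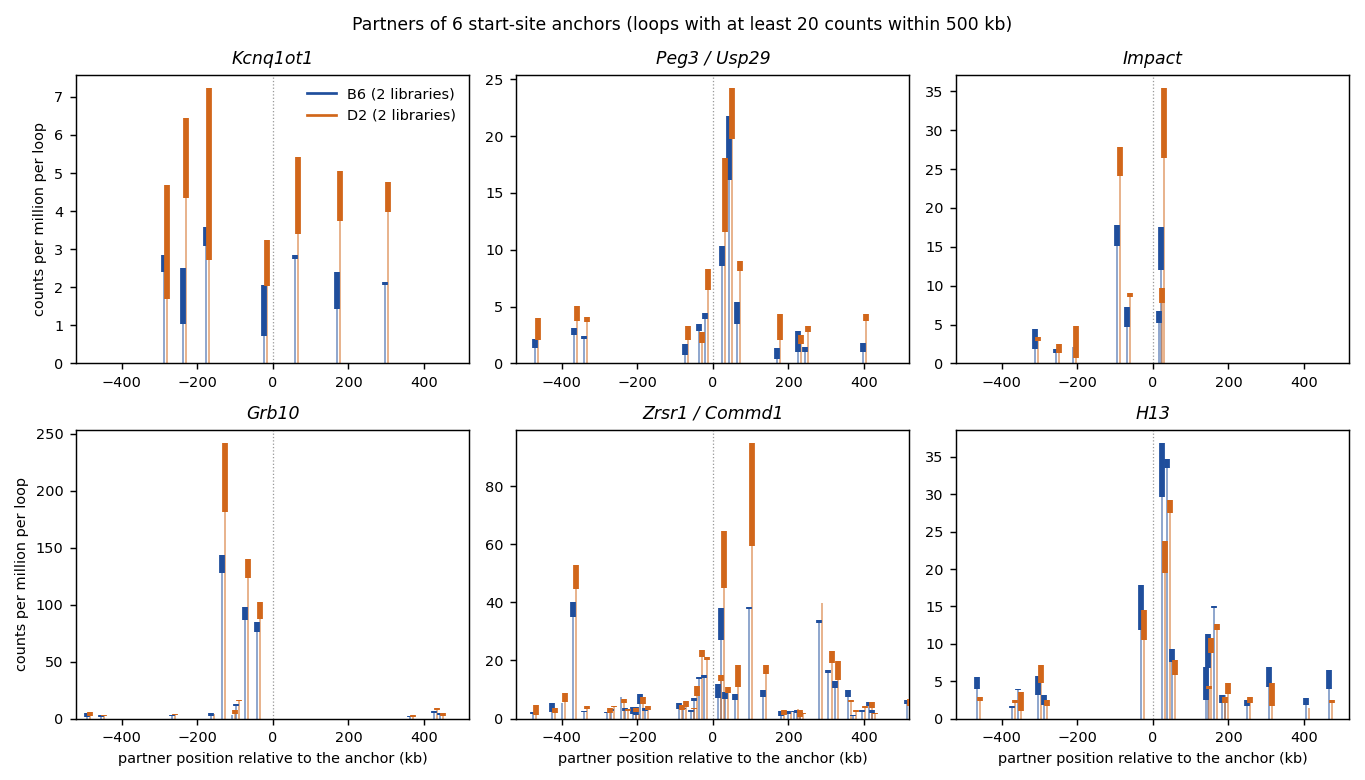
CPM of each tested loop (y axis; bars span the 2 libraries of a strain, thin lines rise to the mean; blue B6, orange D2) against the partner's distance from the anchor's centre in kb, for the start-site anchor with most counts of 6 loci with a called gene; loops of at least 20 counts within 500 kb are drawn. Fold changes were above 0 for all 7 loops of Kcnq1ot1, where some bars overlap, and for 12 of 13 of Peg3 and Usp29. They lay on either side for Zrsr1 and Commd1, and were below 0 for 17 of 22 loops of H13. Counts include partners beyond the plotted range. The loops are parts of the totals by which the loci were chosen.

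H13, the gene of a signal peptide peptidase, is transcribed from the maternal copy in full length and holds the paternal retrogene Mcts2 in an intron (chr2:152669461-152708670, plus strand). Its totals were 279.2 and 234.9 CPM in B6 and 212.4 and 198.0 CPM in D2. D2 was below B6 in both libraries, with a log2 fold change of -0.38 ± 0.13 (standard error; edgeR, adjusted p = 0.0438). The call was lost with library totals in place of TMM factors (adjusted p = 0.0924), without B6 replicate 1 (-0.26, 0.550), without B6 replicate 2 (0.119) and in DESeq2 (0.172). Its 2 anchors differed. The one at the gene's start, which holds the promoter printed above, had 138, 119, 119 and 113 counts, and the strains overlapped. The internal one, shared with Mcts2, had 726, 572, 509 and 501.

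The 22 tested loops of the internal H13 anchor are parts of the called total. Of these, 17 had fold changes below 0, and 0 passed in edgeR (6 at an unadjusted p under 0.05). The strongest went to Id1, the gene of an inhibitor of differentiation, 40.3 kb away, with 101 and 94 counts in B6 and 76 and 86 in D2. The lowest fold changes belonged to loops that ran far downstream. The loop to Asxl1 at 655.7 kb had 14, 12, 5 and 5 counts, and the longest, into Commd7 at 910.0 kb, had 14, 12, 6 and 5 (log2 fold change -1.29 ± 0.53, standard error, edgeR adjusted p = 0.258). D2 was lower in each of these without overlap, at few counts.

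Among the remaining paternally expressed genes, Mest, a gene of the hydrolase fold family that promotes growth, had 47.4 and 47.5 CPM in B6 and 60.0 and 62.2 CPM in D2. The strains were well separated, and the log2 fold change of 0.31 ± 0.16 (standard error) did not pass (edgeR, adjusted p = 0.216). Its strongest loop, to Ssmem1 and Tmem209 at 219.4 kb, had 17, 15, 43 and 28 counts (1.08 ± 0.33, edgeR adjusted p = 0.0718), and its longest, 572.8 kb to the Mir183 cluster, 6, 5, 7 and 7. Copg2, a coatomer subunit gene, and Klf14, a transcription factor gene, share the Mest cluster and had fold changes of 0.18 and 0.23 with D2 above B6 in all libraries and adjusted p of 0.701 and 0.645 in edgeR.

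Peg10, a retrotransposon-derived gene needed in the placenta, and Sgce, the gene of epsilon-sarcoglycan, start next to each other and share an anchor. Peg10 had 30.9 and 38.2 CPM in B6 and 48.1 and 42.1 CPM in D2, and Sgce 68.4 and 80.0 against 86.7 and 86.9 CPM. Ppp1r9a, the gene of neurabin, had 132.0 and 145.7 CPM in B6 and 174.9 and 173.9 CPM in D2. In all 3 the D2 libraries were above those of B6, with log2 fold changes of 0.33, 0.17 and 0.27 and adjusted p of 0.267, 0.493 and 0.166 in edgeR. The strongest loop lay inside Ppp1r9a over 87.3 kb with 38, 47, 47 and 52 counts, and the longest reached from Casd1 to Ppp1r9a over 511.4 kb with 8, 4, 9 and 2. Of these genes' counts, 14.9% to 21.9% ended at a start site of a gene that is not among the 44, and 69.8% to 73.3% had no start site at the other end.

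Trappc9, a vesicle trafficking gene, and Peg13, a noncoding RNA in its intron, met Ago2 as their main partner. The loop from Trappc9 to Ago2 at 117.2 kb had 30, 26, 40 and 38 counts, and that from Peg13 at 369.4 kb 12, 4, 9 and 8. Trappc9's totals were 47.1 and 40.7 CPM against 54.6 and 55.4 CPM, and Peg13's 17.5 and 11.4 against 19.1 and 20.4 CPM. D2 was above B6 in both, with adjusted p of 0.322 and 0.354 in edgeR.

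Gnas encodes the stimulatory G protein alpha subunit and has several imprinted starts, which fell on 3 anchors. Its totals of 159.2 and 186.0 CPM in B6 and 231.2 and 187.1 CPM in D2 did not overlap by a small margin (log2 fold change 0.22 ± 0.13, standard error, edgeR adjusted p = 0.308). The wide anchor, which also holds the antisense Nespas, overlapped between strains at 389, 452, 548 and 453 counts. A second anchor inside the gene did not, at 63, 73, 98 and 102. The strongest loop ran to Npepl1 at 168.6 kb with 28, 26, 45 and 43 counts, and the longest over 1759 kb with 3, 10, 8 and 7.

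Plagl1, a zinc finger transcription factor gene of growth control, was lower in D2 in all libraries without passing the test. It had 146.5 and 177.1 CPM in B6 and 136.6 and 138.6 CPM in D2 (log2 fold change -0.29 ± 0.13, standard error, edgeR adjusted p = 0.154). Its anchors went different ways. The upstream one had 84, 83, 62 and 52 counts, the one over its imprinted CG-rich start 115, 118, 135 and 146, and the downstream one 282, 348, 258 and 262. The loop between the latter pair, over 19.4 kb, was the strongest of the gene with 36, 35, 57 and 47 counts, and the longest ran to Utrn over 557.8 kb with 3, 8, 5 and 6.

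Nnat, the gene of neuronatin, a small membrane protein, starts in an intron of Blcap and shares its anchor. It had 76.7 and 79.3 CPM in B6 and 79.1 and 62.2 CPM in D2, with overlap. Its strongest loop, to Ghrh and Manbal at 190.7 kb, had 51 and 46 counts in B6 and 39 and 22 in D2 (log2 fold change -0.73 ± 0.28, standard error, edgeR adjusted p = 0.212), and its longest, to Rbl1 at 358.3 kb, 4, 6, 6 and 5.

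Meg3, a maternal noncoding RNA, had 19.6 and 22.1 CPM in B6 and 28.2 and 27.9 CPM in D2, with D2 above B6 (log2 fold change 0.37 ± 0.21, standard error, edgeR adjusted p = 0.285). Dlk1, the paternal growth regulator of the same cluster, did not separate the strains, at 18.6, 21.1, 21.7 and 18.3 CPM. Both genes had a single tested loop, and each led to the anchor of Gm27528 that lies between them. From Meg3, over 13.5 kb, it had 20, 18, 39 and 28 counts, and from Dlk1, over 76.0 kb, 8, 11, 16 and 9. Rian, Mirg and Rtl1, the remaining genes of the cluster, had no anchor, with the nearest one 38589, 36 and 55677 bp from a start.

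Airn, the paternal noncoding RNA that silences Igf2r, had 26.1 and 26.4 CPM in B6 and 32.5 and 34.6 CPM in D2, without overlap (log2 fold change 0.30 ± 0.20, standard error, edgeR adjusted p = 0.362). Igf2r, the maternal receptor that clears IGF2, overlapped at 44, 45.7, 40.5 and 48.9 CPM, and Slc22a3, a cation transporter gene silenced by Airn in the placenta, at 5.85, 3.93, 3.61 and 4.42 CPM. Of the 12 tested loops of the locus 5 had fold changes above 0 and 7 below, with a median of -0.07. The loop between Airn and the internal start of Igf2r, over 11.1 kb, had 7, 10, 16 and 16 counts, and that between Airn and the anchor at the start of Igf2r, over 26.8 kb, 13, 8, 13 and 7. The strongest loop of the locus, from the start of Igf2r to CT030636.1 at 24.9 kb, had 9, 10, 14 and 23, and the longest, from Airn to Sod2 and Wtap at 254.9 kb, had 5, 6, 10 and 11 counts. D2 was above B6 without overlap in the loops over 11.1, 24.9 and 254.9 kb, and the strains overlapped in that over 26.8 kb. None of the 12 (0 of 12) passed in edgeR (lowest adjusted p = 0.389; 1 of 12 at an unadjusted p under 0.05).

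The weakest clusters gave little to compare. Igf2, the fetal growth factor gene, had 27, 27, 20 and 28 counts and no loop of 20 counts, and H19 and Ins2 had no start-site anchor, with the nearest 1179 and 13088 bp away. Snrpn, a splicing protein gene at the Prader-Willi control region, had 17 and 15 counts in B6 and 12 and 7 in D2 (log2 fold change -0.80 ± 0.43, standard error, edgeR adjusted p = 0.247), and Ube3a, a ubiquitin ligase gene, 12, 15, 19 and 14. Ndn and Magel2, of the MAGE family, had none, with an anchor 900 and 27310 bp from their starts. Zdbf2, a zinc finger gene, had 27, 40, 31 and 30 counts, its strongest loop spanning 9.22 kb (8, 12, 13 and 8) and its longest, to Eef1b2 and Ndufs1, 104.0 kb (7, 3, 3 and 9). Inpp5f, a phosphoinositide phosphatase gene, had 17, 19, 15 and 19. Strains overlapped in all of these except Snrpn.

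Summed per cluster, 11 of 18 had a higher mean in D2. Loops without an imprinted start within 500 kb of each cluster were summed in the same way. At Peg3, Impact, Grb10 and Zrsr1-Commd1 the member loops had log2 ratios of 0.48, 0.57, 0.45 and 0.43, and the surrounding loops 0.36, 0.40, 0.38 and 0.33. At those 4 loci the surroundings were thus higher in D2 too, without overlap between strains. Around the Kcnq1ot1 cluster the surroundings had a ratio of -0.06 and the member loops 0.21, and around H13 0.10 and -0.32. Zdbf2 differed most the other way, at -0.14 for its own loops and 0.45 around it. The part of these surroundings in the gene totals was not tested.

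**Figure D4:**
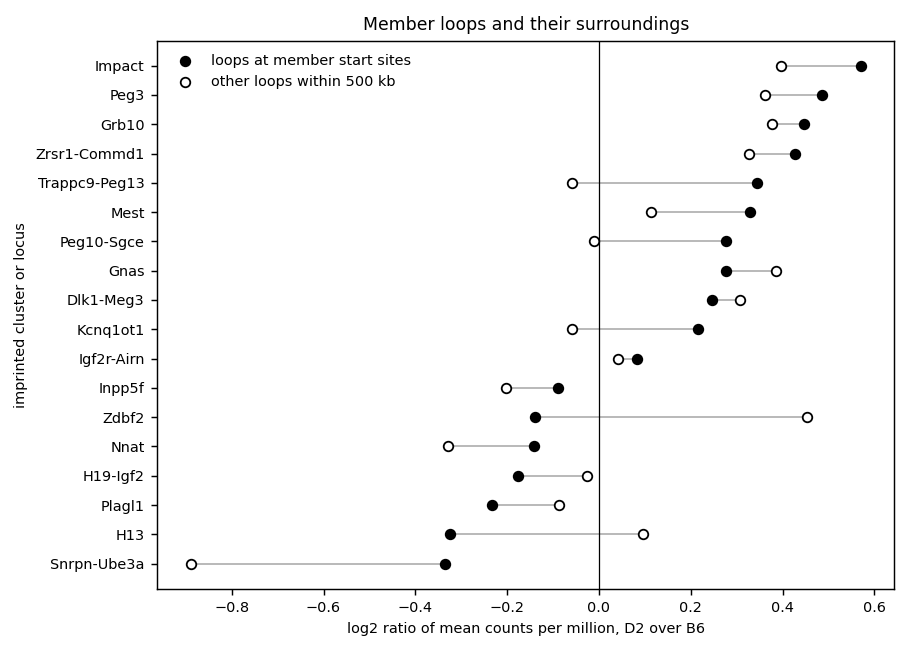
Log2 ratio, D2 over B6, of mean CPM (x axis) for the loops at imprinted start sites (filled) and for other loops within 500 kb (open) of the 18 clusters or single loci, ordered by the filled value. Impact, Peg3, Grb10 and Zrsr1-Commd1 have both points at 0.33 or above, while the points of H13 lie on either side of 0.

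Loops with imprinted start sites at both ends numbered 54, of which 51 stayed within a cluster (1681 counts) and 3 joined clusters (6 counts in all). Of these 54, 19 were tested. The most frequent after those of Impact were the loop joining both Commd1 anchors (42, 38, 65 and 62 counts), the Plagl1 loop given above and that between the H13 anchors (52, 33, 40 and 31). Ascl2 and Tssc4, 90.9 kb apart, met with 18, 19, 16 and 17 counts. By the deposited q-values, 208 of the 2812 loops (7.40%) were below 0.01 in all 4 libraries, against 4.59% of loops at any start site. In 48 loops (1.71%) both D2 libraries and no B6 library passed, and in 33 (1.17%) both B6 and no D2. Over the 1014173 loops with an anchor at any start site these shares were 1.00% and 1.15%, and no test was made.

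Contact distances of imprinted genes were longer, as a description without a test. The median over the 36 of each gene's median contact distance was 188 kb, against 141 kb over all genes tested. In all 4 libraries the count-weighted median of the imprinted loops, at 165.8 and 152.3 kb in B6 and 130.8 and 136.1 kb in D2, was above that of loops at any start site (122.1 and 120.5 kb, 106.8 and 111.7 kb). Contacts beyond 500 kb made up 21.6% and 20.5% of imprinted counts in B6 and 16.4% and 17.1% in D2, and 18.9% and 17.7% against 16.3% and 16.9% at any start site. D2 was shorter on both scales. The difference of -25.6 kb between strains was 0 once loops with 1 count in a library were left out of that library. Such a median takes the distance of a single loop, and 130.8 kb in D2 replicate 1 is that of the strongest Grb10 loop. A difference of 0 therefore does not show that the distances of the strains became equal.

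Among 14 factors that set or maintain imprints, 12 had an anchor, and Zfp57 and Uhrf1 had none. Trim28, the corepressor, had 437.0 and 434.2 CPM in B6 and 821.6 and 502.0 CPM in D2, with the D2 libraries far apart (log2 fold change 0.54 ± 0.15, standard error, edgeR adjusted p = 0.0153). Ctcf, the insulator protein that binds unmethylated control regions such as that of H19, had 142.0 and 147.1 against 235.6 and 180.7 CPM (0.47 ± 0.13, edgeR adjusted p = 0.0169). These 2 were called higher and 0 lower in edgeR (4 of 12 had an unadjusted p under 0.05), where 3.6% of all genes were called higher, 9.51% lower and 25.9% had such a p. The median of the 12 was 0.20. Dnmt3l and Dppa3 had fold changes of 0.36 and 0.29 with adjusted p of 0.0579 and 0.154.

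Of 39 further imprinted genes and cluster neighbours 29 had an anchor and 27 were tested. Higher in D2 was Sfmbt2, a Polycomb-related gene imprinted in the placenta (37.8, 42.5, 72.6 and 55.7 CPM, log2 fold change 0.62, edgeR adjusted p = 0.0124). Ddc was higher too (460.4, 515.6, 768.8 and 611.0 CPM, 0.44, edgeR adjusted p = 0.0236), with part of its counts in loops shared with Grb10. Mcts2 was lower (249.6, 204.2, 183.9 and 170.2 CPM, -0.41, edgeR adjusted p = 0.0294), through the anchor it shares with H13. These are 2 higher and 1 lower of 27, beside 3.6% and 9.51% of all genes. The median of the 27 was 0.04, against 0.01 over all genes.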

How the data were processed

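The deposited raw count table gives, per the file headers, the counts of each anchor pair in 1 column per library and the distance between anchors, and the deposited tables of the single libraries add the authors' p-value, corrected for multiple tests and called q-value here, which was used only to count loops below 0.01. Their counts were the same as those of the table for all member loops. Per the submitters' processing notes, mm10, HiC-Pro 2.11.4 and DESeq2 were used, with roles not stated. Aligner settings and filters are not given in the sources used here. This build is made from C57BL/6J, and any effect of that on D2 counts was not tested. Libraries were read from both ends at 75 bases.

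Start sites came from GENCODE M21. Anchors were matched by overlap, and loop counts were summed per gene with each loop once. D2 was compared with B6 over all loops or genes with at least 20 counts in edgeR 4.0.16 (quasi-likelihood test, TMM factors, library totals over all pairs). In simulated data this test recovered 1.75% of planted 2-fold and 37.2% of 3-fold changes in loops. In genes it recovered 83.8% and 95.4%. Among loops of at least 100 counts the test recovered 12.5% of 2-fold and 90.5% of 3-fold changes. The simulation gave every loop the same spread between libraries beyond counting error, which real loops need not share. A loop that did not pass is therefore weak evidence of no change, at few counts even of no 3-fold change. Adjustment was by Benjamini-Hochberg over everything tested. Alternatives were DESeq2 1.42.0, other scalings and filters, a replicate block, single libraries left out and other start-site rules. Figures were drawn with matplotlib 3.10.9. Loops named are, per cluster, the tested loop with most counts and the longest, and every called loop. Other loops of called loci and pairs of imprinted starts were named after their values had been seen. The 44 genes, the lists and the rules were chosen with earlier results of these data known. Same-numbered libraries did not deviate together (correlation of their deviations -0.0018 over loops and 0.03 over genes), so the numbers pair nothing. Intervals for single counts are not given, and counting error alone is large for loops of a few counts.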

Additional observations from a re-analysis of the deposited data

How the results depend on the processing

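Depth limits single loops, most of which have fewer than 20 counts. Of the 3 called loops, DESeq2 called 0, no filter on low counts gave 5, and leaving out a library gave 0 to 10. Over all loops, edgeR's 1543 calls became 81 with DESeq2, 759 without a filter and 324 to 2033 with a library left out. Of the 7 called genes DESeq2 called 1, and leaving out a library gave 0 to 9, while over all genes 2842 became 1261 with DESeq2 and 1343 to 5429 with a library left out. With the replicate number as a block, 3 loops and 8 genes (with Commd1) passed, although the numbers do not pair the lines. The difference in median distance of -25.6 kb was 0 with loops of at least 2 counts and 0 with tested loops only. These medians move in steps from loop to loop, so a 0 does not show equal distances. The log2 share of 0.26 ranged from 0.19 to 0.32 and the 11 clusters higher in D2 from 11 to 13 with a library left out. A start site taken only from the gene record gave 6 of 31 genes, and 2 of 180 loops beside the 1.43% of all loops. Shares over all genes for this rule, and over all loops and genes with the block, are not given here. No excess over the background can be read from those counts.

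Some fold changes without a call took either sign. Dlk1 was 0.013 with library totals, Ascl2 -0.0020 without a filter and -0.014 with the gene record's start, and the longest loop of Plagl1 0.0087 with factors over all pairs and 0.0087 without a filter. With a library left out, log2 fold changes ran from -0.16 to 0.065 for Dlk1, -0.28 to 0.070 for Cdkn1c, -0.36 to 0.15 for Phlda2, -0.20 to 0.18 for Ascl2, -0.27 to 0.087 for Slc22a18, -0.0034 to 0.24 for Zim1, -0.038 to 0.47 for Ube3a, -0.21 to 0.079 for Igf2r and -0.49 to 0.15 for Zdbf2. For longest loops they ran from -0.18 to 0.71 at Dlk1-Meg3, -0.51 to 1.24 at Gnas, -0.27 to 0.47 at Grb10, -0.79 to 0.075 at Kcnq1ot1, -0.22 to 0.40 at Nnat, -1.63 to 0.55 at Peg10-Sgce, -0.63 to 0.80 at Plagl1, -0.54 to 0.97 at Trappc9-Peg13 and -0.74 to 0.87 at Zdbf2. For strongest loops they ran from -0.025 to 0.33 at Peg10-Sgce, -0.063 to 0.36 at Peg3 and -0.42 to 0.34 at Zdbf2. The cause of these changes was not tested.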
